A study of Homo sapiens with 9 samples.

Results

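The heat shock chaperones examined were 10 genes of the cytosol and mitochondria: HSP90AA1, HSP90AB1, HSPD1, HSPE1, HSPA4, HSPA8, HSPH1, DNAJB1, HSPB1 and the regulator HSF1. Their members were every probe set of the deposited table whose only gene symbol was one of these names, which gave 37 of the 49395 probe sets and 10 of the 18132 genes with a single-symbol probe set. Of the 37 probe sets, 30 were bright enough to be tested, and all 10 genes had at least 1 of them. RNA came from HCCC-9810, a human intrahepatic cholangiocarcinoma (bile duct cancer) cell line, in 9 samples read on Affymetrix arrays. The groups were si-BAP1 (siRNAs against BAP1, a nuclear deubiquitinase), si-MBD5 (siRNAs against MBD5, which carries a methyl-CpG-binding domain) and si-Control, with 3 biological replicates each. The control is named si-Control in the titles but control shRNA in the treatment label, and which it was is not settled. All groups were the same line after transfection; dose, time after transfection and the number of separate siRNAs were not given in the sources used here.

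Chaperones bind unfolded or partly folded proteins. In the cytosol, HSP70 (HSPA8 is its constitutive form) works in cycles with J proteins such as DNAJB1, which deliver clients, and with the HSP110 proteins HSPA4 and HSPH1, which exchange its nucleotide, and it passes many clients on to HSP90. HSP90 exists as an inducible form, HSP90AA1, and a constitutive form, HSP90AB1, and many kinases and steroid receptors depend on it. In mitochondria the HSPD1 barrel folds proteins under its lid HSPE1. HSPB1, a small heat shock protein of the cytosol, holds clients without using ATP. HSF1 is the transcription factor that raises many of these genes under proteotoxic stress, by binding repeats of the unit nGAAn in alternating orientation.

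Promoter sequences from RefSeq (GRCh38.p14, 250 bases before to 50 after each annotated start) were examined for 9 of the 10 genes, in 15 windows. HSF1 was left out of this step, and its promoter was not searched. The windows were searched for 3 alternating units without gaps, written TTCNNGAANNTTC or GAANNTTCNNGAA, which are each other's reverse complement and so cover both strands. The motif was present in 4 of the 15 windows, those of HSP90AA1, HSP90AB1, HSPD1 and HSPA8, and in 172 of all 35116 windows of that length (0.49%). The bases before the start in these 4 windows are shown because they belong to the pair of HSP90 genes that parted in si-BAP1 cells, to HSPD1, which was higher in both knockdowns, and to HSPA8, for which no probe set passed the test. Capitals mark the motif; a match is a description of letters and not a measured binding site. HSP90AA1 lies at chr14:102087045-102087294 on the minus strand, with 1 match that begins 88 bases before the start. HSP90AB1 lies at chr6:44247693-44247942 on the plus strand, with matches that begin 165 and 112 bases before the start. HSPD1 lies at chr2:197499841-197500090 on the minus strand, before the inner of its 2 annotated starts, with 2 matches that overlap each other and begin 245 and 240 bases before it. HSPA8 lies at chr11:123062137-123062386 on the minus strand, with matches that begin 230 and 55 bases before the start. The window of HSPH1, which was higher in si-MBD5, held no match. Neither did the other windows of HSP90AA1, HSP90AB1 and HSPD1.
HSP90AA1: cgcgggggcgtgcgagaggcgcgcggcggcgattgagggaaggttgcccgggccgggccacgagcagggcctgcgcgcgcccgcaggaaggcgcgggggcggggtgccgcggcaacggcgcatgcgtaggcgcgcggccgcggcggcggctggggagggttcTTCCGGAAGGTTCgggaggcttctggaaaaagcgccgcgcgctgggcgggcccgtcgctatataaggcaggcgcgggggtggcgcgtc
HSP90AB1: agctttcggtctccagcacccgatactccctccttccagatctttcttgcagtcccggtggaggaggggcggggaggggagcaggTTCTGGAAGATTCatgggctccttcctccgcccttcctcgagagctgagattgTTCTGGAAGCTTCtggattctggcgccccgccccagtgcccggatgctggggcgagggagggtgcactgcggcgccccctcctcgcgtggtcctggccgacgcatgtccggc
HSPD1: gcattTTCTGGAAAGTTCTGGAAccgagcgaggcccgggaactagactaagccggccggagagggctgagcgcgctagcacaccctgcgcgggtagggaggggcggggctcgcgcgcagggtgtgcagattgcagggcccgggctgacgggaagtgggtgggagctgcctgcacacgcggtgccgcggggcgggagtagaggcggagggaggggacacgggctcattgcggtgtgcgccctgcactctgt
HSPA8: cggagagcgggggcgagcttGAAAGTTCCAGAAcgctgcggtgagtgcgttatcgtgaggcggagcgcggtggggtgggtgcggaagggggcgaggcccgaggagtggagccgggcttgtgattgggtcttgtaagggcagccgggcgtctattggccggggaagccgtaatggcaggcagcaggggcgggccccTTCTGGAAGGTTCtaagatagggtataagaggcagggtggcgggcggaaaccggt

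HSPD1 and HSPE1, the barrel and the lid of the mitochondrial chaperonin, are neighbours on chromosome 2 and are transcribed away from each other. Their nearest annotated starts, at positions 197500274 and 197500379, leave 104 bases between them (chr2:197500275-197500378, shown on the plus strand because HSPD1 passed the test in both knockdowns and HSPE1 in neither). None of the windows at these 2 starts held the motif.
HSPD1 to HSPE1: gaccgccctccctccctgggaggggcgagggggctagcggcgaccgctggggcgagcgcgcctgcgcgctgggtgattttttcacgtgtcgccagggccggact

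The deposited values are intensities on a linear scale, and group values are mean ± SD over n = 3 arrays. Log2 fold changes compare group averages of log2(intensity + 16), which are smaller than the ratios of the printed intensities for dim probe sets, with their standard error (SE) and the limma p-value adjusted over all genes tested. Each gene is given by the brightest of its probe sets unless stated otherwise, and a change was called at an adjusted p under 0.05. Arrays of 1 group correlated at 0.998 to 0.999 and arrays of different groups at 0.996 to 0.998 over all probe sets. MBD5 was dim, with its probe sets at the 11.9th and 0.828th percentiles, below the filter. The brighter read 8.66, 7.61 and 6.99 in si-BAP1 and 6.20, 6.20 and 6.11 in si-MBD5 against 7.16, 7.06 and 6.90 in si-Control. The dimmer averaged 2.475 in si-BAP1 and 2.338 in si-MBD5 against 2.389 in si-Control. Neither was tested, so a fall of MBD5 in si-MBD5 was not established. BAP1 was not analysed here, so the si-BAP1 label was not checked against its target. Of the cholangiocyte markers, the keratins KRT8, KRT7 and KRT18 stood at the 94.2nd, 96.1st and 98.0th percentiles of all probe sets and SOX9 at the 51.9th, while EPCAM (15.3rd), CFTR (20.1st), SPP1 (30.1st) and KRT19 (34.2nd) lay below the filter. Their sum was 3618 to 3730 in si-BAP1, 3288 to 3551 in si-MBD5 and 3494 to 3772 in si-Control. Summed markers of hepatocytes gave 131.6 to 141.1 in si-BAP1, 129.9 to 154.1 in si-MBD5 and 128.8 to 142.4 in si-Control (2 of 7 genes above the filter, none at 0), and those of fibroblasts and endothelium 202.8 to 227.2, 212.1 to 238.4 and 204.8 to 215.4 in the same order (4 of 7 genes above the filter). Those of immune cells summed to 86.7 to 106.8 in si-BAP1, 93.0 to 110.1 in si-MBD5 and 98.6 to 111.1 in si-Control (2 of 4 above the filter). Of the markers that were tested singly, KRT8 was higher in si-BAP1 (log2 0.31, limma adjusted p = 2.28e-04), KRT7 was lower in both knockdowns (-0.15 in si-BAP1 and -0.19 in si-MBD5) and the fibroblast and pericyte receptor PDGFRB was higher in both (0.16 and 0.24). KRT8 also differed between the knockdowns (log2 0.25, limma adjusted p = 0.00325), and the part of these markers in the results was not tested. ACTB probe sets at the 3' end over those at the 5' end, a measure of RNA integrity, gave 11.1 ± 0.31 in si-BAP1, 12.3 ± 0.72 in si-MBD5 and 12.2 ± 0.52 in si-Control, with every si-BAP1 array under every si-Control array (exact two-sided permutation p = 0.1, which no arrangement of 3 against 3 can go below). Every si-BAP1 array was also under every si-MBD5 array in this ratio (exact permutation p = 0.1). The same ratio for GAPDH was 1.08 ± 0.011 in si-BAP1, 1.07 ± 0.0046 in si-MBD5 and 1.06 ± 0.026 in si-Control, with si-BAP1 and si-Control overlapping (exact permutation p = 0.3). The part of these ratios in the si-BAP1 results was not tested.

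In si-BAP1 cells the HSP90 pair parted: the inducible HSP90AA1 rose 1.30-fold while the constitutive HSP90AB1 fell to 0.815 of its control level. HSPD1 rose 1.19-fold, and its partner HSPE1 had a fold of 0.992 that did not pass the test. In bulk RNA such as this, a change in the share of cells and a change in RNA per cell cannot be told apart. In all, 3 of the 10 genes passed, 2 higher and 1 lower, beside 23.5% of the 12434 genes tested (12.4% higher and 11.1% lower), so the number that passed is no result about this family. Arrays of the 2 groups did not overlap in 5 of the 10 genes, against 37.5% of all genes. The median log2 fold change was -0.034 over the 10 genes and 0.0005 over all genes.

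In si-MBD5 cells 4 of the 10 genes passed, and all 4 were higher: HSP90AA1, HSPH1, HSPD1 and HSP90AB1, with folds of 1.26, 1.15, 1.13 and 1.10. The background was 16.3% of all genes, 7.29% higher and 8.99% lower. The 10 genes were chosen with earlier results of these data known, so the counts in this paragraph are no result about the family. Arrays did not overlap in 4 of the 10 genes, beside 30.4% of all genes, and the median log2 fold change was 0.060 over the 10 genes and 0.0001 over all. Set directly against each other, the knockdowns differed in HSP90AB1 and HSPH1, both lower in si-BAP1. These were 2 of 10 genes beside 9.97% of all genes (5.76% higher and 4.21% lower in si-BAP1), and arrays did not overlap in 4 of 10 genes beside 25.0% of all. Over all genes this last comparison had 716 higher and 524 lower in si-BAP1, and 603 higher and 711 lower under quantile normalization. Both knockdowns were compared with the same 3 control arrays, so their values are given side by side and their likeness is not a result.

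**Figure D1:**
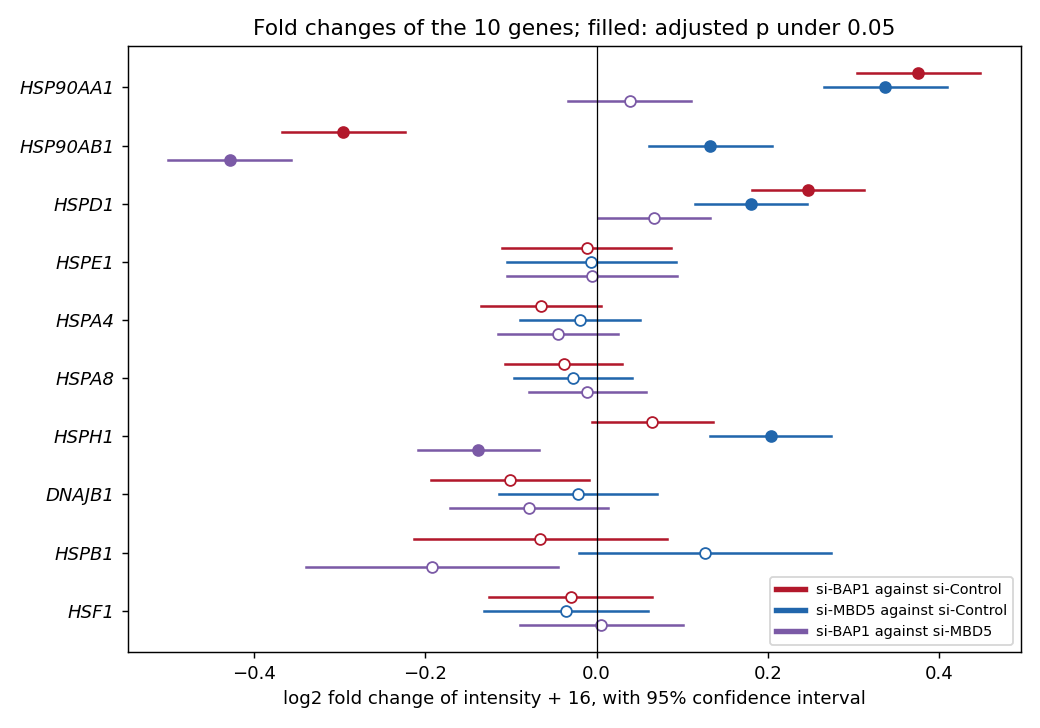
Log2 fold change of intensity + 16 (horizontal axis) for the 10 genes (vertical axis) in the 3 comparisons, with 95% confidence intervals; filled points passed an adjusted p of 0.05. HSP90AB1 lies at -0.30 in si-BAP1 and at 0.13 in si-MBD5, on opposite sides of 0, while HSP90AA1 lies at 0.38 and 0.34 in the same order.

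HSP90AA1, the stress-inducible cytosolic HSP90, had intensities of 1572, 1610 and 1562 in si-BAP1 arrays and 1522, 1518 and 1579 in si-MBD5 arrays, against 1231, 1168 and 1248 in si-Control arrays. All 6 knockdown arrays lay above all 3 control arrays, and the knockdowns overlapped each other. The log2 fold change was 0.38 (SE 0.033, limma adjusted p = 3.4e-06) in si-BAP1 and 0.34 (SE 0.033, limma adjusted p = 2.5e-05) in si-MBD5. Between the knockdowns it was 0.038 (95% interval -0.034 to 0.11, limma adjusted p = 0.551). A second, dimmer probe set read 516 ± 14 in si-BAP1 and 486 ± 4.6 in si-MBD5 against 381 ± 12 in si-Control. It gave log2 fold changes of 0.42 and 0.34 that both passed when adjusted over the 27195 single-symbol probe sets above the filter, of which 20.5% passed in si-BAP1 and 12.9% in si-MBD5.

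HSP90AB1, the constitutive cytosolic HSP90, was lowest in si-BAP1 and highest in si-MBD5. Its single probe set read 2169, 2046 and 2108 in si-BAP1 arrays and 2785, 2824 and 2918 in si-MBD5 arrays, against 2672, 2607 and 2495 in si-Control arrays. The 3 groups did not overlap at all: every si-BAP1 array was below, and every si-MBD5 array above, every control array. The log2 fold change was -0.30 in si-BAP1 (SE 0.033, limma adjusted p = 2.6e-05) and 0.13 in si-MBD5 (SE 0.033, limma adjusted p = 0.0151), and the direct difference between si-BAP1 and si-MBD5 was -0.43 (SE 0.033, 95% interval -0.50 to -0.36, limma adjusted p = 4.5e-06). The fall in si-BAP1 and the direct difference kept their calls in all 20 alternatives. The rise in si-MBD5 lost its call without si-Control replicate 3 (log2 0.11, adjusted p = 0.0607) and without the intensity trend (adjusted p = 0.0542).

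Because both HSP90 genes were read on the same arrays, a scaling factor common to an array largely cancels in the difference between them. The within-array difference of HSP90AA1 minus HSP90AB1 on the log2 scale was higher by 0.67 in si-BAP1 and by 0.20 in si-MBD5 than in si-Control, where its SD over arrays was 0.082. All 3 arrays of each knockdown lay above all 3 control arrays in this difference (exact two-sided permutation p = 0.1 for each, the smallest possible). For si-BAP1 this follows from both genes already being separated from the controls in opposite directions, so it is no further test. The difference was 0.47 higher in si-BAP1 than in si-MBD5, again with no overlap (exact permutation p = 0.1).

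**Figure D2:**
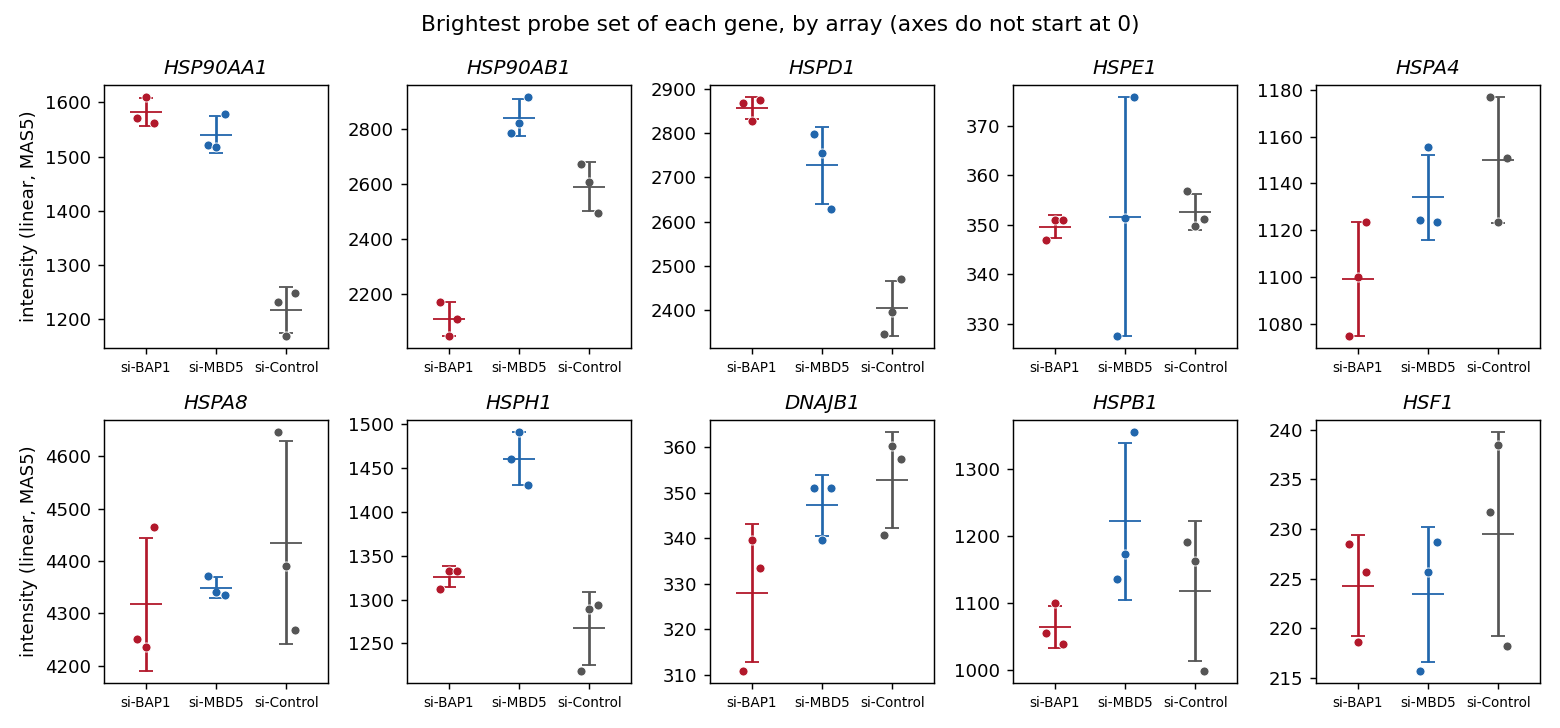
Deposited intensity (vertical axis, linear scale, not starting at 0) of the brightest probe set of each of the 10 genes in the 9 arrays, grouped as si-BAP1, si-MBD5 and si-Control; points are arrays, bars the mean and SD of 3 arrays. HSP90AA1 sits at 1518 to 1610 in the 6 knockdown arrays, above the control arrays, and HSP90AB1 falls into 3 groups that do not overlap.

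HSPD1, the barrel subunit of the mitochondrial chaperonin, had intensities of 2868, 2827 and 2873 in si-BAP1 arrays and 2798, 2755 and 2629 in si-MBD5 arrays, against 2346, 2396 and 2471 in si-Control arrays. All knockdown arrays were above all control arrays, and the si-BAP1 arrays above the si-MBD5 arrays. Its log2 fold change was 0.25 in si-BAP1 (SE 0.030, limma adjusted p = 5.2e-05) and 0.18 in si-MBD5 (SE 0.030, limma adjusted p = 0.00126), and the calls held in each of the 19 alternatives that could read the gene. Between the knockdowns the log2 difference was 0.067 (95% interval 0.0014 to 0.13, limma adjusted p = 0.206). Of the 5 HSPD1 probe sets above the filter, all had a higher mean in both knockdowns; 4 passed in si-BAP1 (log2 0.21 to 0.25) and 3 in si-MBD5 (0.12 to 0.18). The probe set that passed in neither read 2535, 2685 and 2650 in si-BAP1 and 2607, 2895 and 2191 in si-MBD5 against 2332, 2327 and 2588 in si-Control, a wider spread than on the others. In the direct comparison, where 7.81% of probe sets passed, the dimmest of the 5 passed (1307 ± 63 in si-BAP1 against 1173 ± 52 in si-MBD5, log2 0.15, limma adjusted p = 0.0497). Every HSPD1 probe set above the filter has an identifier of the _x_at or _s_at type, which marks probes shared with other sequences, so the gene could not be read without these types. The 2 remaining probe sets stood at the 15.8th and 14.1st percentiles and were not tested.

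HSPE1, the lid of that chaperonin and the head-to-head neighbour of HSPD1, had intensities of 346.9, 350.9 and 350.9 in si-BAP1 arrays and 327.6, 351.3 and 375.8 in si-MBD5 arrays, against 356.8, 349.8 and 351.2 in si-Control arrays. The groups overlapped, and the si-MBD5 arrays spread most. Its log2 fold change was -0.012 in si-BAP1 (95% interval -0.11 to 0.087, limma adjusted p = 0.899) and -0.0060 in si-MBD5 (95% interval -0.11 to 0.093, limma adjusted p = 0.955). These intervals lie below the values of the brightest HSPD1 probe set, whose own intervals began at 0.18 in si-BAP1 and 0.12 in si-MBD5. The values of the 3 HSPD1 probe sets that passed in si-MBD5 lay above the HSPE1 interval there. For 1 of these 3, with log2 0.12, the 95% interval of 0.051 to 0.20 overlapped that of HSPE1. The values of the other HSPD1 probe sets above the filter lay within the HSPE1 interval. Those others had log2 0.078 (95% interval -0.085 to 0.24) and 0.080 (95% interval -0.015 to 0.18). The first of them had an interval of -0.044 to 0.28 in si-BAP1, which overlaps that of HSPE1. The within-array difference of HSPD1 minus HSPE1 was 0.26 log2 units higher in si-BAP1 than in si-Control with no overlap (exact two-sided permutation p = 0.1, the smallest possible). It was 0.19 higher in si-MBD5, where 1 array overlapped the controls (exact permutation p = 0.2). HSPE1 has 1 single-symbol probe set, of the _x_at type, so this contrast rests on that probe set. A brighter probe set annotated jointly to HSPE1 and HSPE1-MOB4, a readthrough gene, could not be assigned; it averaged 1792 ± 32.2 in si-BAP1 and 1937 ± 116 in si-MBD5 against 1787 ± 50.6 in si-Control (SD, n = 3 each) and was not tested.

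HSPA8, the constitutive cytosolic HSP70, had intensities of 4251, 4236 and 4464 in si-BAP1 arrays and 4371, 4340 and 4335 in si-MBD5 arrays, against 4647, 4391 and 4268 in si-Control arrays. The 3 groups overlapped. Its log2 fold change was -0.038 in si-BAP1 (95% interval -0.11 to 0.030, limma adjusted p = 0.453) and -0.028 in si-MBD5 (95% interval -0.096 to 0.041, limma adjusted p = 0.63). The 4 HSPA8 probe sets above the filter ranged over -0.038 to 0.087 in si-BAP1 and -0.046 to 0.038 in si-MBD5, and none passed. The 5 others stood at or below the 33.1st percentile, with group means of 8.43 to 21.1, and were not tested.

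HSPH1, the stress-inducible HSP110 that exchanges the nucleotide of HSP70, was higher in si-MBD5. Its brightest probe set read 1312, 1333 and 1333 in si-BAP1 arrays and 1460, 1492 and 1431 in si-MBD5 arrays, against 1219, 1289 and 1294 in si-Control arrays. The si-MBD5 arrays lay above all others, and the si-BAP1 arrays lay just above the controls. The log2 fold change was 0.20 in si-MBD5 (SE 0.033, limma adjusted p = 9.4e-04) and 0.065 in si-BAP1 (95% interval -0.0055 to 0.14, limma adjusted p = 0.186). The direct difference of si-BAP1 from si-MBD5 was -0.14 (SE 0.033, limma adjusted p = 0.0167). The 8 HSPH1 probe sets read 1 gene on the same arrays, so their agreement is not independent. All 8 had a higher mean in si-MBD5 than in si-Control (log2 0.092 to 0.20). In 5 the arrays did not overlap. The share without overlap was 30.4% over genes, each read by its brightest probe set, and was not computed over probe sets. Only the brightest of the 8 passed, beside 12.9% of all probe sets tested. The closest of the others, the dimmest one, read 220, 245 and 208 in si-MBD5 against 198, 193 and 198 in si-Control (log2 0.18, limma adjusted p = 0.05004). In si-BAP1 the 8 probe sets ranged from -0.021 to 0.066, 4 above and 4 below 0. With the _x_at and _s_at types left out, the si-MBD5 call ended (log2 0.11, adjusted p = 0.101), and the direct difference lost its call in 6 of 20 alternatives (adjusted p = 0.0514 to 0.614). Among these 6 were the fits that left out si-BAP1 replicate 1 (0.0626), si-BAP1 replicate 3 (0.0514) or si-MBD5 replicate 1 (0.0558).

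HSPA4, the other HSP110 examined, had intensities of 1075, 1100 and 1123 in si-BAP1 arrays and 1124, 1156 and 1123 in si-MBD5 arrays, against 1177, 1123 and 1151 in si-Control arrays. All 3 groups overlapped or touched. The log2 fold changes were -0.065 in si-BAP1 (95% interval -0.13 to 0.0052, limma adjusted p = 0.185) and -0.020 in si-MBD5 (95% interval -0.090 to 0.050, limma adjusted p = 0.75). One of its 3 dimmer probe sets differed: it read 62.2, 59.6 and 67.5 in si-BAP1 arrays and 73.7, 90.4 and 82.8 in si-MBD5 arrays, against 81.1, 83.2 and 78.0 in si-Control arrays. On it si-BAP1 fell, with a log2 difference of -0.29 from si-Control (SE 0.062, limma adjusted p = 0.0045) and of -0.31 from si-MBD5 (SE 0.062, limma adjusted p = 0.0083), with no overlap in either pair. The remaining 3 HSPA4 probe sets lay between -0.078 and -0.013 in si-BAP1, and none passed, so the fall was seen on 1 of 4 probe sets.

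DNAJB1, the J protein that is among the classic targets of HSF1, had intensities of 310.9, 339.6 and 333.5 in si-BAP1 arrays and 351.0, 339.6 and 351.0 in si-MBD5 arrays, against 340.7, 360.2 and 357.5 in si-Control arrays. The si-BAP1 arrays lay below the control arrays by a narrow margin. On the log2 scale the change was -0.10 in si-BAP1 (95% interval -0.19 to -0.0085, limma adjusted p = 0.114) and -0.022 in si-MBD5 (95% interval -0.11 to 0.071, limma adjusted p = 0.794). Its 3 probe sets did not point one way: in si-BAP1 the other 2 had log2 fold changes of 0.053 and -0.11, and none passed.

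HSPB1, the small heat shock protein, had the widest standard error of the 10 genes. It had intensities of 1055, 1100 and 1040 in si-BAP1 arrays and 1137, 1173 and 1356 in si-MBD5 arrays, against 1192, 1163 and 999 in si-Control arrays. The si-BAP1 arrays lay below the si-MBD5 arrays, and both overlapped the controls. The log2 fold change was -0.066 in si-BAP1 and 0.13 in si-MBD5 (limma adjusted p = 0.569 and 0.25), with an SE of 0.068. The direct difference was -0.19 (95% interval -0.34 to -0.045, limma adjusted p = 0.102), and it passed only without si-Control replicate 3 (adjusted p = 0.0461), the array that read 999. HSPB1 too has 1 single-symbol probe set, of the _x_at type.

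HSF1, the transcription factor of the heat shock response, had intensities of 229, 219 and 226 in si-BAP1 arrays and 216, 226 and 229 in si-MBD5 arrays, against 232, 238 and 218 in si-Control arrays. The groups overlapped. On the log2 scale HSF1 differed by -0.030 in si-BAP1 (95% interval -0.13 to 0.065, limma adjusted p = 0.702) and -0.036 in si-MBD5 (95% interval -0.13 to 0.060, limma adjusted p = 0.657). HSF1 is controlled largely at the protein level, which the arrays do not read.

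**Figure D3:**
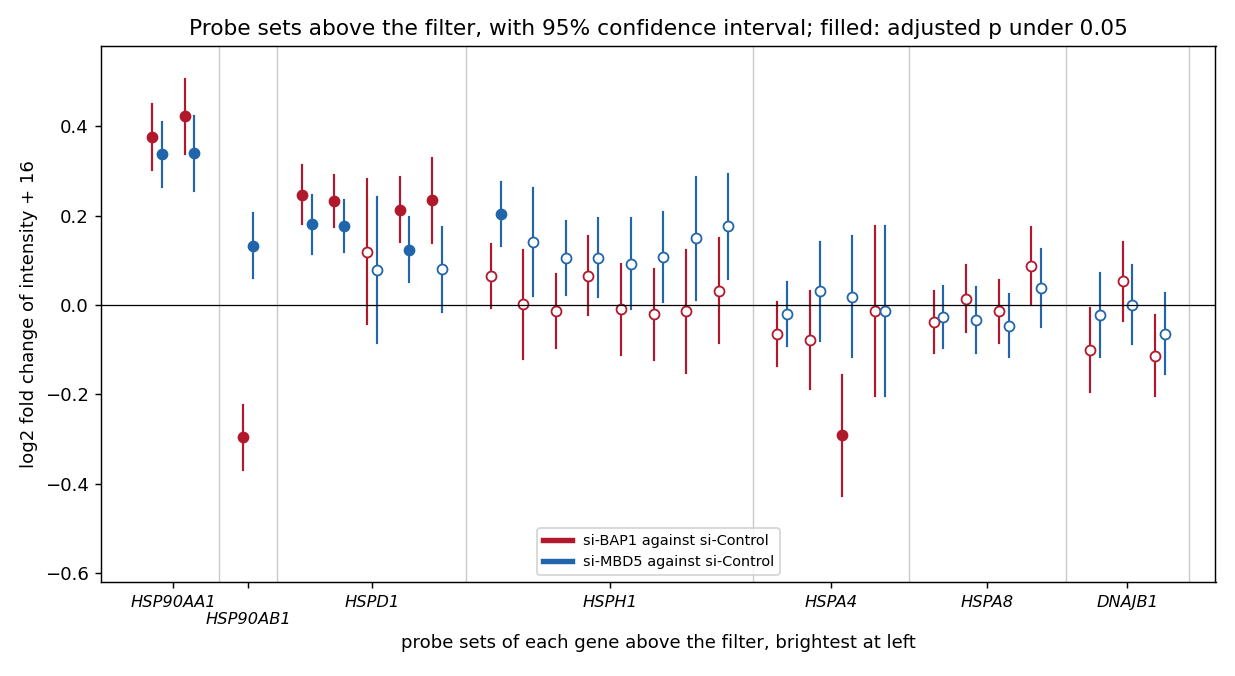
Log2 fold change of intensity + 16 (vertical axis) with 95% confidence interval for each probe set above the filter (horizontal axis, brightest at left within a gene) of the 6 members with several such probe sets and of HSP90AB1, in si-BAP1 and si-MBD5 against si-Control; filled points passed an adjusted p of 0.05 over all probe sets. Both HSP90AA1 probe sets and all 5 HSPD1 probe sets lie above 0, all 8 HSPH1 probe sets lie above 0 in si-MBD5, and 1 of 4 HSPA4 probe sets lies at -0.29 in si-BAP1.

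Genes that work with the 10 were read from 12 lists holding 115 further genes, of which 107 had a single-symbol probe set and 101 were tested. In si-BAP1, 24 of the 101 passed, 14 higher and 10 lower (23.8%, beside 23.5% of all genes); the count was 13 without si-BAP1 replicate 3 and 15 without si-Control replicate 2. In si-MBD5, 17 passed, 9 higher and 8 lower (16.8%, beside 16.3%); the count was 10 without si-Control replicate 2. Between the knockdowns 7 passed, 4 higher and 3 lower in si-BAP1 (6.93%, beside 9.97%), and 4 without si-BAP1 replicate 1 or without si-MBD5 replicate 1. Median log2 fold changes of the 101 genes were 0.009, -0.011 and 0.022 in the 3 comparisons. The shares against si-Control lay near those of all genes.

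Among HSP90 co-chaperones, 3 of 13 tested genes rose and 1 fell in si-BAP1 (median log2 0.045), and 3 rose and 0 fell in si-MBD5 (median 0.058). These were 30.8% and 23.1% of the list, beside 23.5% and 16.3% of all genes, and the si-BAP1 count of 4 was 2 without si-BAP1 replicate 3 or si-Control replicate 2. FKBP4, an immunophilin of steroid receptor complexes, had 841, 838 and 864 in si-BAP1 arrays and 803, 846 and 886 in si-MBD5 arrays, against 712, 739 and 704 in si-Control arrays. It rose in both knockdowns without overlap (log2 0.23 in each, limma adjusted p = 6.9e-04 in si-BAP1 and 0.0016 in si-MBD5). NUDC, a dynein-associated co-chaperone, rose by log2 0.18 and 0.17, and its si-MBD5 call ended without si-MBD5 replicate 2 (adjusted p = 0.0558) and without si-Control replicate 1 (0.0681). The cyclophilin PPID rose in si-BAP1 (log2 0.16, a call lost on leaving out si-BAP1 replicate 3 or si-Control replicate 1 or 2, with adjusted p = 0.0634 to 0.0917) and the myosin chaperone UNC45A in si-MBD5 (log2 0.25, limma adjusted p = 0.0049). CHORDC1 fell in si-BAP1 (log2 -0.21, limma adjusted p = 0.0318), a call lost in 6 of 20 alternatives. With the mean of its probe sets it was -0.078 (adjusted p = 0.378), without the intensity trend its adjusted p was 0.055, and the other losses were without si-BAP1 replicate 1 or 3 or si-Control replicate 2 or 3 (adjusted p = 0.0705 to 0.131). None of the 13 passed between the knockdowns.

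Among HSP70 co-chaperones, 2 of 9 rose and 1 fell in si-BAP1 (median log2 0.024), and 1 rose and 1 fell in si-MBD5 (median -0.006). These were 33.3% and 22.2% of the list, beside 23.5% and 16.3% of all genes. The si-BAP1 count of 3 was 1 with the mean of probe sets, without the _x_at and _s_at types, without si-BAP1 replicate 1 and without si-Control replicate 2. ST13, which stabilises the ADP-bound state of HSP70, had 584, 639 and 598 in si-BAP1 arrays and 584, 619 and 588 in si-MBD5 arrays, against 478, 494 and 510 in si-Control arrays. All knockdown arrays lay above all controls (log2 0.29 in si-BAP1, limma adjusted p = 2.6e-04, and 0.27 in si-MBD5, limma adjusted p = 0.0010). HSPBP1, a nucleotide exchange factor, rose in si-BAP1 (log2 0.14), a call kept in 13 of 20 alternatives. It was 0.081 with the mean of probe sets (adjusted p = 0.179) and 0.063 without the _x_at and _s_at types (adjusted p = 0.563), and the other losses were without any 1 si-BAP1 array or without si-Control replicate 2 or 3. BAG5, another exchange factor, fell in both (log2 -0.15 and -0.13). Its si-BAP1 call ended with the mean of probe sets (log2 -0.10, adjusted p = 0.133) and without si-BAP1 replicate 1 or si-Control replicate 1 or 2, and its si-MBD5 call was kept in 5 of 20 alternatives. Of 17 other cytosolic J proteins, 3 rose and 1 fell in si-BAP1 (median 0.022) and 1 rose in si-MBD5 (median -0.004), or 23.5% and 5.88% of the list beside 23.5% and 16.3% of all genes. The si-BAP1 count of 4 was 2 without si-BAP1 replicate 3, and the si-MBD5 count of 1 was 3 without si-MBD5 replicate 3 and 2 with quantile normalization and under both other treatments of the probe sets. DNAJC6, the auxilin that uncoats clathrin vesicles, rose in both (log2 0.26 and 0.36), DNAJB5 (0.22) and the ribosome-associated DNAJC2 (0.11) rose in si-BAP1, and DNAJC24 fell there (-0.20). Of these si-BAP1 calls, that of DNAJC6 held in all 20 alternatives. Those of DNAJC2 and DNAJC24 ended without si-BAP1 replicate 3 (limma adjusted p = 0.0699 and 0.0597). That of DNAJC2 also ended without si-Control replicate 3 and without the intensity trend (limma adjusted p = 0.0709 and 0.0619). That of DNAJB5 ended without si-BAP1 replicate 2 or si-Control replicate 1 (limma adjusted p = 0.0595 each). Of 5 other cytosolic HSP70 and HSP110 genes, HSPA4L, the third HSP110, fell in si-BAP1 (155, 172 and 162 against 175, 194 and 202 in si-Control; log2 -0.20, limma adjusted p = 0.0205), and 0 passed in si-MBD5 (medians -0.011 and -0.006). Its call ended without any 1 of 4 arrays, si-BAP1 replicates 1 and 3 and si-Control replicates 2 and 3. The calls were 20.0% of these 5 genes in si-BAP1 and 0.00% in si-MBD5, beside 23.5% and 16.3% of all genes.

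Among the 4 small heat shock proteins tested besides HSPB1, CRYAB, alpha B crystallin, was the 1 that passed. It had 139.9, 153 and 141.9 in si-BAP1 arrays and 134.7, 135.8 and 136.7 in si-MBD5 arrays, against 117, 113 and 109.5 in si-Control arrays. CRYAB rose in both knockdowns (log2 0.31, limma adjusted p = 1.9e-04, and 0.23, limma adjusted p = 0.00355), and the medians of the list were -0.059 and 0.011. This was 25.0% of the tested list in each, beside 23.5% and 16.3% of all genes. Of 8 subunits of the cytosolic chaperonin TRiC, CCT3 rose in si-BAP1 (log2 0.15) and CCT5 in si-MBD5 (0.12), with medians of 0.017 and -0.001. This was 12.5% of the list in each, beside 23.5% and 16.3% of all genes. The CCT5 call ended with median centring, without the intensity trend and without si-Control replicate 2 (limma adjusted p = 0.0558, 0.0712 and 0.0743). Of 6 prefoldin subunits, which hand clients to TRiC, 0 passed in si-BAP1 and PFDN5 fell in si-MBD5 (log2 -0.12, medians -0.048 and -0.091). These were 0.00% and 16.7% of the list, beside 23.5% and 16.3% of all genes. The PFDN5 call ended without the intensity trend (limma adjusted p = 0.0553). It also ended without si-MBD5 replicate 1 or si-Control replicate 1 or 2 (limma adjusted p = 0.0678, 0.0681 and 0.0717). In si-BAP1, 1 subunit was called lower with quantile normalization and with the mean of probe sets. The same count came without si-BAP1 replicate 2, si-MBD5 replicate 3 or si-Control replicate 1 or 3. Of 3 heat shock factor genes other than HSF1 and their binding proteins, 0 passed in si-BAP1 and HSBP1L1 fell in si-MBD5 (log2 -0.16). The medians were -0.084 and -0.14. The calls were 0.00% and 33.3% of the list, beside 23.5% and 16.3% of all genes. The HSBP1L1 call ended with only the 2 groups compared (limma adjusted p = 0.0602). It also ended without si-MBD5 replicate 1 or 3 or si-Control replicate 2 or 3 (limma adjusted p = 0.0579 to 0.15).

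In mitochondria, 1 of 10 other chaperone genes rose in si-BAP1 and 0 passed in si-MBD5 (medians 0.037 and -0.026). The gene that rose was GRPEL2, a nucleotide exchange factor (log2 0.18). Its call was lost with median centring (limma adjusted p = 0.0552) and without si-BAP1 replicate 2 or 3 or si-Control replicate 1 or 2. Of 8 quality control proteases and their subunits, 1 rose and 3 fell in si-BAP1, and 1 rose and 2 fell in si-MBD5 (medians -0.041 and -0.035). These were 4 of 8 genes in si-BAP1 and 3 of 8 in si-MBD5, beside 23.5% and 16.3% of all genes. The si-BAP1 count of 4 was 1 without si-BAP1 replicate 3 and 2 without si-BAP1 replicate 1 or si-Control replicate 1 or 2, and the si-MBD5 count of 3 was 1 without si-MBD5 replicate 3 or si-Control replicate 2 and under both other treatments of the probe sets. CLPX, the unfoldase that feeds the ClpP protease, had 145.8, 161 and 148 in si-BAP1 arrays and 234, 241 and 215 in si-MBD5 arrays, against 215, 229 and 242 in si-Control arrays. The si-BAP1 arrays lay below all others, and the other 2 groups overlapped. CLPX fell by 0.54 on the log2 scale in si-BAP1 (SE 0.056, limma adjusted p = 1.3e-05), and the difference of si-BAP1 from si-MBD5 was -0.55 (limma adjusted p = 3.95e-05). AFG3L2, an inner-membrane protease, rose in both knockdowns (log2 0.21 and 0.19) and its partner SPG7 fell in both (-0.13 in each), while HTRA2 fell in si-BAP1 (-0.13) and YME1L1 in si-MBD5 (-0.13). In si-BAP1 the AFG3L2 call ended without si-BAP1 replicate 3 or si-Control replicate 3 (adjusted p = 0.0654 and 0.0513), and those of SPG7 and HTRA2 were kept in 13 of 20 alternatives each. The si-BAP1 value of SPG7 was -0.084 with the mean of probe sets (adjusted p = 0.0922) and -0.039 without the _x_at and _s_at types (adjusted p = 0.66). In si-MBD5 the AFG3L2 call was kept in 15 of 20 alternatives, lost among others without si-Control replicate 3 (adjusted p = 0.115). The si-MBD5 call of SPG7 was kept in 7 of 20, and its value was 0.010 without the _x_at and _s_at types (adjusted p = 0.93). That of YME1L1 ended when its probe sets were averaged (log2 -0.062, adjusted p = 0.231) and without those types (-0.080, 0.293).

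Of 17 chaperones of the endoplasmic reticulum, 2 rose and 2 fell in si-BAP1 and 1 rose and 2 fell in si-MBD5 (medians 0.012 and -0.017). These were 23.5% and 17.6% of the list, close to the 23.5% and 16.3% of all genes. CANX, the membrane lectin calnexin, had 3247, 3133 and 3231 in si-BAP1 arrays and 3933, 3920 and 4104 in si-MBD5 arrays, against 4096, 3870 and 3853 in si-Control arrays. It fell in si-BAP1 (log2 -0.30, limma adjusted p = 1.2e-05) and differed between the knockdowns (log2 -0.31, limma adjusted p = 2.7e-05). CALR, the soluble lectin calreticulin, rose in si-BAP1 (log2 0.25), the disulfide isomerase P4HB rose in both (0.20 and 0.13), DNAJB11 fell in both (-0.22 and -0.20) and DNAJB9 fell in si-MBD5 (-0.28). In si-MBD5 the P4HB call ended without the intensity trend and without si-Control replicate 3 (limma adjusted p = 0.0503 and 0.0662). That of DNAJB11 ended without si-MBD5 replicate 3 or si-Control replicate 2 or 3 (limma adjusted p = 0.0586 to 0.0702). Of 11 tested genes known to be raised by HSF1 under heat, which overlap the lists above, 2 rose and 2 fell in si-BAP1 and 2 rose and 1 fell in si-MBD5 (medians 0.017 and 0.027). These were 36.4% of the list in si-BAP1 and 27.3% in si-MBD5, beside 23.5% and 16.3% of all genes. The list had CRYAB and FKBP4 among the rises and CHORDC1 and IER5 among the falls; IER5, an HSF1 regulator that p53 also induces, had log2 -0.20 in si-BAP1 and -0.39 in si-MBD5 (limma adjusted p = 0.0182 and 3.7e-04). The si-BAP1 call of IER5 ended without si-BAP1 replicate 1 or 3 or si-Control replicate 2 or 3 (adjusted p = 0.0511 to 0.0711). Both si-BAP1 falls lost their calls without si-BAP1 replicate 1 or 3 or si-Control replicate 2 or 3, which left 2 genes, both higher.

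**Figure D4:**
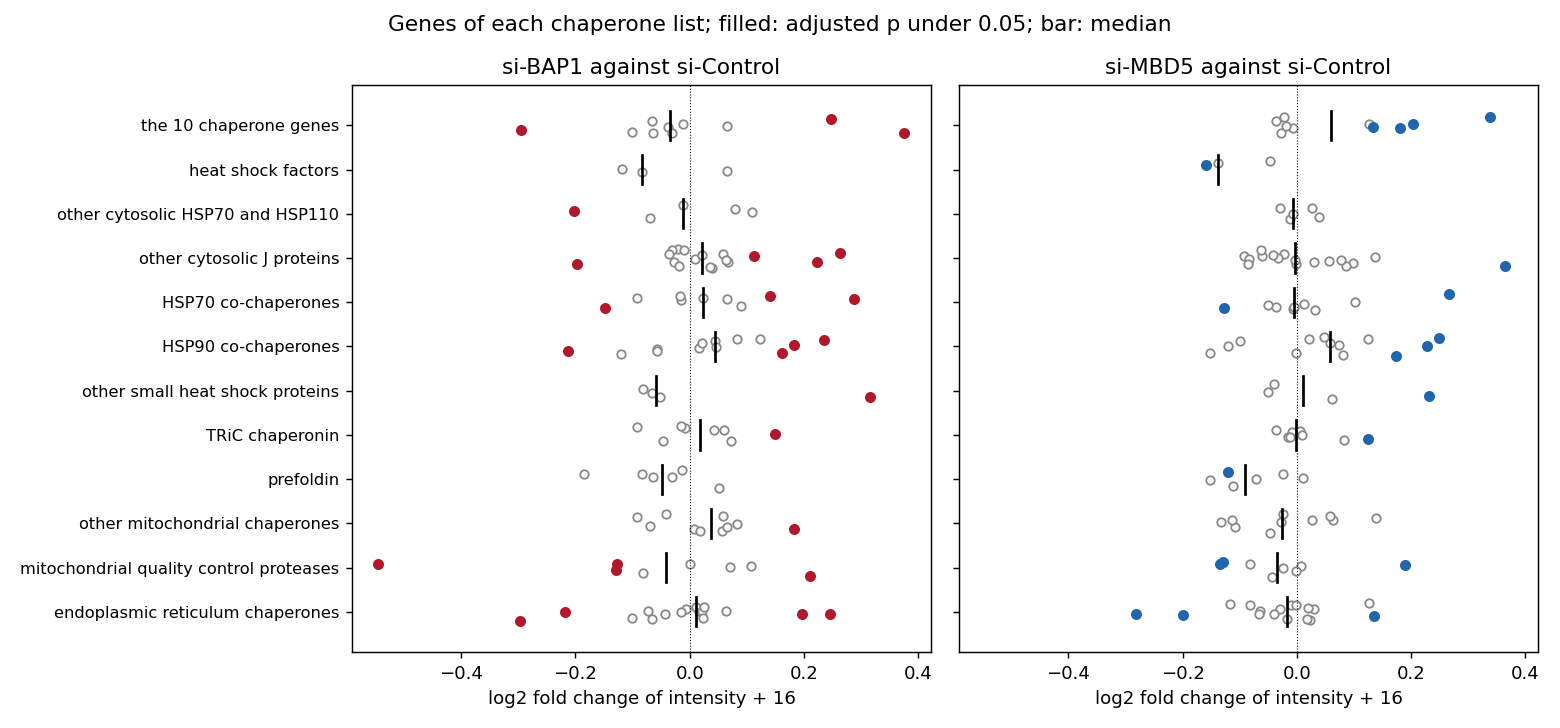
Log2 fold change of intensity + 16 (horizontal axis) of each tested gene in the 10 chaperone genes and 11 of the further lists (vertical axis) in si-BAP1 and si-MBD5 against si-Control; filled points passed an adjusted p of 0.05, bars are medians, and vertical scatter within a row carries no value. CLPX is the lowest point in si-BAP1 at -0.54, and medians lie between -0.14 and 0.060 in both panels.

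In the direct comparison, 7 genes of these lists passed. HSPA4L (log2 -0.24), CLPX and CANX were lower in si-BAP1 than in si-MBD5, and HSBP1L1 (0.22), DNAJC19 (0.15), YME1L1 (0.13) and IER5 (0.19) were higher. HSPA4L lost its call without si-BAP1 replicate 1 or 3 or si-MBD5 replicate 1 (adjusted p = 0.0659 to 0.0871). DNAJC19 kept its call in 7 of 19 alternatives and IER5 in 10 of 20, with 0.11 for IER5 on the mean of probe sets (adjusted p = 0.0716). YME1L1 was 0.050 on that mean (adjusted p = 0.382), and with the _x_at and _s_at types left out it turned in sign to -0.035 (0.716). The list medians of si-BAP1 against si-MBD5 lay between -0.021 and 0.034.

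HSP90AA1 had the smallest adjusted p of the 10 genes against si-Control. The 5 genes whose values over the 9 arrays, each centred on its own mean, lay closest to it were SIAH2, NSMCE4A, RAC1, FHL2 and MOB3B. Their root mean square distances were 0.028 to 0.037 log2 units, where the median over all other genes tested was 0.184. SIAH2, a ubiquitin ligase, averaged 553 in si-BAP1 and 530 in si-MBD5 against 418 in si-Control, with log2 fold changes of 0.39 and 0.33. The small GTPase RAC1 averaged 2571 in si-BAP1 and 2584 in si-MBD5 against 2026 in si-Control. This nearness is a description of 9 arrays in 3 groups and carries no test.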

How the data were processed

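The authors deposited linear intensities, made with MAS5 per the submitters' processing notes (version not given there). Array medians of the deposited intensity were 36.9 to 38.2; whether arrays had been scaled to a common level is not stated, and no scaling was added. Up to 5.49% of values were identical between 2 arrays. Signal over background and 3 arrays per group limit precision. Probe sets were named from the platform annotation, with symbols updated to RefSeq by gene identifier (44961 matched, 27 kept); those with several symbols (1832) or none (2473) were not assigned to genes. Log2(intensity + 16) was fitted across all genes in limma 3.58.1 (R 4.3.3) with 3 group means, an intensity trend and 6 residual degrees of freedom. Single-symbol probe sets were kept above the 40th percentile of mean intensity (25.5), with the brightest per gene. P-values were adjusted by Benjamini-Hochberg over 12434 genes, or over 27195 probe sets, and the procedure was tested on simulated data. Exact permutation tests used scipy 1.17.1, and figures matplotlib 3.10.9. P-values measure the spread between samples of 1 cell line.

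The members and lists were chosen with earlier results of these data known. Named genes were all members, up to 3 per list and direction that passed with smallest adjusted p and separated arrays, and the 5 nearest to the member with the smallest adjusted p. In total 20 alternatives were tried: constants of 1 and 64, quantile and median scaling, no filter, a 60th percentile filter, mean of probe sets, no _x_at or _s_at probe sets, a replicate block, no trend, only the 2 groups compared, and leaving out each array. Deviations of same-numbered replicates from their group means correlated at -0.433 to 0.48, so the numbers were not taken to pair the samples.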

Additional observations from a re-analysis of the deposited data

Results flagged for a closer look

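HSP90AB1 and HSPH1 are listed because the effects of the 2 knockdowns differed in a direct test. HSP90AB1 differed by log2 -0.43 in si-BAP1 relative to si-MBD5, with si-BAP1 below and si-MBD5 above every control array. HSPH1 differed by log2 -0.14 in the same comparison, with 8 of 8 probe sets lower in si-BAP1 and 1 of 8 past the threshold. The share of all probe sets past it was 7.81%, and these 8 read 1 gene on the same arrays.

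Probe sets whose annotation joins a member to another gene were assigned to neither and lie outside the comparisons. One annotated to HSP90AB1 and the pseudogene HSP90AB3P averaged 2191 in si-MBD5 (2121, 2261 and 2192), above every control array (2051, 2070 and 2027), while its si-BAP1 arrays (1621, 1623 and 1692) were below every control array. One annotated to HSPD1 and the pseudogene HSPD1P5 averaged 1956 in si-BAP1 (1889, 2049 and 1931), above every control array (1691, 1612 and 1763), while its si-MBD5 arrays (1947, 1860 and 1647) overlapped the control arrays. These differences were not tested.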

How the results depend on the processing

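Of 588 results for the 10 genes under the alternatives, 578 kept their direction where called and their side of the threshold, 9 lost a call, 1 gained one and 0 reversed. The number of the 10 genes past the threshold was 3 in si-BAP1 and 4 in si-MBD5. Without _x_at and _s_at probe sets only 6 genes could be read, HSPD1 not among them. The number was then 2 in each knockdown, HSP90AA1 and HSP90AB1. Between the knockdowns it was 2, and 1 with median centring, with the mean of probe sets and without _x_at and _s_at probe sets. In that comparison leaving out 1 array gave 1 to 3. Leaving out 1 array gave 3 in every fit for si-BAP1 and 3 to 4 for si-MBD5. Over all genes, leaving out 1 array gave 2245 to 3175 calls in si-BAP1, 1266 to 1972 in si-MBD5 (1266 without si-Control replicate 2) and 721 to 1328 between the knockdowns (721 without si-MBD5 replicate 1 and 759 without si-BAP1 replicate 3), against 2918, 2025 and 1240. The causes were not tested. With the replicate number as a block, 3, 4 and 2 of the 10 genes passed, and 2851, 1866 and 1115 of all genes; no pairing was taken from the numbers. Signal over background limits what the 7 dim probe sets of HSPA8 and HSPD1 can show.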

Other observations

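Both probe sets annotated jointly to HSPE1 and the readthrough gene HSPE1-MOB4 were assigned to neither. The brighter one read 1755, 1811 and 1811 in si-BAP1 arrays and 1961, 2039 and 1811 in si-MBD5 arrays, against 1731, 1800 and 1830 in si-Control arrays. The dimmer one averaged 237 in si-BAP1 and 229.7 in si-MBD5 against 230.4 in si-Control.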
